A study of Mus musculus with 6 samples.

Results

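Receptors, partners and targets through which host cells respond to products of gut bacteria were examined in the testes of mice given fecal microbiota. They were chosen by name from the table of gene expression, and all 10 of the 10 names were found among its 54532 genes: the aryl hydrocarbon receptor gene Ahr, its partner Arnt and its target Cyp1b1, the nuclear receptors Vdr, Nr1i2 and Nr1h4 with their partner Rxra, and the cell surface receptors Gpbar1, Ffar2 and Ffar3. RNA from whole testes was sequenced for 3 alcohol-FMT mice (18, 24 and 31) and 3 control-FMT mice (16, 19 and 21), with 1 library for each mouse. FMT stands for fecal microbiota transplantation. All were male C57BL/6 mice, 3 weeks old when they were first housed together, and all were gavaged for 10 weeks with filtered stool while they themselves drank distilled water. The alcohol-FMT mice received stool from males that drank 10% ethanol, for 8 weeks by the series text or 10 weeks by the methods, and the control-FMT mice received stool from males without ethanol. The stool of each donor group came from several mice, so the recipients of a group shared their donors, and the recipients had no antibiotics beforehand to remove their own microbiota. The comparison asks how testicular RNA levels differ with the donor's drinking.

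The members belong to several routes of sensing. The aryl hydrocarbon receptor (AHR) is a transcription factor kept in the cytoplasm by chaperones; it binds dioxins and, among natural ligands, indoles that bacteria make from tryptophan, then moves to the nucleus, pairs with ARNT and binds DNA at xenobiotic response elements of genes such as those of the CYP1 enzymes. The vitamin D receptor (VDR), the pregnane X receptor (PXR, gene Nr1i2) and the farnesoid X receptor (FXR, gene Nr1h4) bind DNA as heterodimers with retinoid X receptors, and respond to the active form of vitamin D and lithocholic acid, to foreign compounds and secondary bile acids, and to bile acids. Gpbar1 encodes the bile acid receptor TGR5, and Ffar2 and Ffar3 encode receptors for acetate, propionate and butyrate, all 3 of them G protein-coupled and best known from gut, immune and endocrine cells.

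The libraries held 17167372, 18320869 and 18633124 fragments in genes in alcohol-FMT mice 18, 24 and 31, against 17647505, 18045951 and 16504096 in control-FMT mice 16, 19 and 21. Any pair of libraries correlated with a Pearson's r of 0.979 or more. Single libraries still weighed on the whole table: without alcohol-FMT mouse 18, limma gave 2697 genes at an unadjusted p up to 0.05 in place of 1106, and limma-voom gave 778 genes past the adjusted threshold in place of 0. Values are FPKM, fragments scaled to the length of the gene and the size of the library, which allow genes to be compared per length. The RNA is that of a whole organ, so a lower level can come from fewer cells of a type or from less RNA per cell, and these cannot be told apart. Of 11 lists of cell type markers none was at 0, and the summed levels of all 11 overlapped between the groups: the 5 Leydig cell markers summed to 288 to 404 FPKM in alcohol-FMT mice and 357 to 464 FPKM in control-FMT mice, the 5 Sertoli cell markers to 55.3 to 61.4 in alcohol-FMT and 54.2 to 60.6 in control-FMT mice, the 6 macrophage markers to 26.6 to 29.2 in alcohol-FMT and 26.8 to 31.9 in control-FMT mice, and the 5 spermatid markers to 14323 to 21527 in alcohol-FMT and 13876 to 16530 in control-FMT mice. The 5 epididymis markers summed to 0.961 to 5.33 FPKM in alcohol-FMT mice, highest in mouse 31, and to 1.46 to 1.91 FPKM in control-FMT mice. Gene by gene, 4 of the 51 markers were lower in alcohol-FMT mice with groups that did not overlap and 2 were higher, against 5.33% lower and 7.76% higher of all genes tested. Some of the 51 markers had a mean FPKM below 1, a level that all genes tested reached. Of the lower ones 3 were the Sertoli cell markers Wt1, Sox9 and Fshr: Wt1 had 5.85 to 6.24 FPKM in alcohol-FMT mice and 6.38 to 7.11 FPKM in control-FMT mice, Sox9 had 3.45 to 3.91 FPKM in alcohol-FMT and 3.97 to 4.33 FPKM in control-FMT mice, and Fshr had 0.568 to 1.14 FPKM in alcohol-FMT and 1.17 to 1.34 FPKM in control-FMT mice. None of these passed the test (adjusted p of 0.743, 0.730 and 0.689, limma). The other lower one was among the 3 red blood cell markers, where Hbb-bs had a log2 fold change of -0.61 (limma, adjusted p = 0.662). The 2 higher ones were among the 4 adipocyte markers. The summed level of the Sertoli list is mostly that of its other 2 genes, Cldn11 and Rhox5. Cldn11 averaged 36.2 ± 0.813 FPKM in alcohol-FMT mice and 36.9 ± 3.16 FPKM in control-FMT mice (SD, n = 3 each). Rhox5 averaged 11.7 ± 3.99 FPKM in alcohol-FMT mice and 8.77 ± 0.797 FPKM in control-FMT mice, with groups that overlapped.

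In testis the members fell into a readily measured group and a scarce one. Rxra, Cyp1b1, Arnt and Vdr reached a mean FPKM of 1, as did 15206 genes in all, which were tested. These 4 supplied 94.9 to 96.1% of the summed FPKM of the 10 members in each library. The other 6, which are Ahr, Nr1i2, Nr1h4, Gpbar1, Ffar2 and Ffar3, were below it. By mean FPKM the order was Rxra (8.74), Cyp1b1 (4.07), Arnt, Vdr and Ahr, and it held in 6 of 6 libraries with ranges that did not overlap between neighbours. Rxra averaged 2.15 times the level of Cyp1b1, Cyp1b1 1.43 times that of Arnt, Arnt 1.65 times that of Vdr, and Vdr 6.13 times that of Ahr. From Ahr downward neighbours overlapped: Ahr was above Nr1i2 in 3 of 6 libraries, Nr1i2 above Nr1h4 in 5, Nr1h4 above Gpbar1 in 5, Gpbar1 above Ffar2 in 4 and Ffar2 above Ffar3 in 3. Among the 35799 genes with a fragment in any library, Rxra stood at the 83.6th percentile of mean FPKM, Vdr at the 64.1st, Ahr at the 41.8th and Ffar3 at the 2.5th.

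No member passed the test between the alcohol-FMT and the control-FMT group. With limma on log2(FPKM + 1), 0 of 4 passed an adjusted p of 0.05 over the 15206 genes, and 0 of 4 had an unadjusted p up to 0.05, against 7.27% of all genes tested (1106 genes). No gene of the table passed the adjusted threshold, the smallest adjusted p being 0.180 with limma and 0.578 with limma-voom on the same genes. Rxra, Cyp1b1 and Vdr had higher means in alcohol-FMT mice and Arnt a lower one, and only Arnt had groups that did not overlap. Every alcohol-FMT library was below every control-FMT library for 5.33% of all genes tested, and above it for 7.76%.

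**Figure D1:**
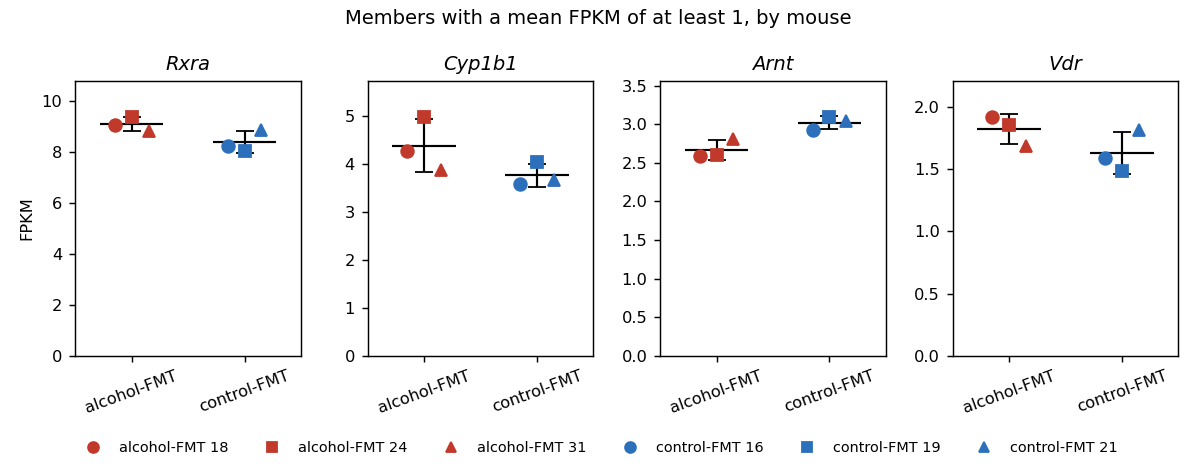
FPKM (vertical axis, from 0) of the 4 members with a mean FPKM of at least 1 in each alcohol-FMT mouse (red) and each control-FMT mouse (blue), with the mean and SD of each group as black bars. The 3 alcohol-FMT values of Arnt, 2.59 to 2.81 FPKM, lie below its 3 control-FMT values, 2.93 to 3.10 FPKM, and the groups of Rxra, Cyp1b1 and Vdr overlap.

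Within the AHR route the partner was more abundant than the receptor. Ahr (GRCm38, chr12:35497974-35535038, minus strand, 11 exons) had 0.366, 0.261 and 0.283 FPKM in alcohol-FMT mice 18, 24 and 31, against 0.242, 0.308 and 0.230 FPKM in control-FMT mice 16, 19 and 21. These were 38, 30 and 32 fragments in alcohol-FMT mice, against 27, 34 and 24 in control-FMT mice, so the groups overlapped, and the highest value, in alcohol-FMT mouse 18, came from 38 fragments with a counting interval (exact Poisson, 95%) of 26.9 to 52.2. Means were 0.303 ± 0.055 FPKM in alcohol-FMT mice and 0.260 ± 0.042 FPKM in control-FMT mice (SD, n = 3 each; exact two-sided permutation test, p = 0.4, where 3 against 3 mice cannot go below 0.1). In limma-voom on fragments, fitted to the 26193 genes with at least 10 fragments in all, the log2 fold change of Ahr was 0.21 with SE 0.26 and a 95% interval of -0.36 to 0.77 (adjusted p = 0.903). The value ran between 0.07 without alcohol-FMT mouse 18 and 0.33 without control-FMT mouse 19. An antisense gene, Gm48236, overlaps Ahr, and a library kit whose strand is not stated leaves the reads of both indistinguishable.

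Arnt (chr3:95434388-95497240, plus strand, up to 22 exons), which encodes the dimer partner of AHR and also of the hypoxia-inducible factors, was the member whose groups separated. It had 2.59, 2.60 and 2.81 FPKM in alcohol-FMT mice 18, 24 and 31, against 2.93, 3.10 and 3.04 FPKM in control-FMT mice 16, 19 and 21, from 349 to 414 fragments in the alcohol-FMT and 412 to 444 in the control-FMT libraries. All 3 alcohol-FMT mice were below all 3 control-FMT mice, and the closest mice were alcohol-FMT 31 and control-FMT 16. Means were 2.67 ± 0.128 FPKM in alcohol-FMT mice and 3.02 ± 0.083 FPKM in control-FMT mice (SD, n = 3 each; exact two-sided permutation test, p = 0.1, the smallest this design allows). The fitted log2 fold change was -0.13 with SE 0.076 and a 95% interval of -0.31 to 0.04 (limma, adjusted p = 0.757), so the difference did not pass the test. The Sertoli cell markers Wt1, Sox9 and Fshr were lower in the same mice, while Rhox5 had a higher mean and Cldn11 a similar one. The part of these markers in the values of Arnt was not tested. A gene on the same strand, Gm42672, overlaps Arnt in the annotation, and reads of the shared part could belong to either.

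Per length, Arnt was 7.07, 9.95 and 9.96 times the level of Ahr in alcohol-FMT mice 18, 24 and 31, against 12.1, 10.1 and 13.2 times in control-FMT mice 16, 19 and 21. The lowest ratio, in alcohol-FMT mouse 18, is that of the library with most Ahr fragments. The ranges did not overlap, but the nearest values, 9.96 and 10.1, differ by less than the counting error of about 30 Ahr fragments.

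Cyp1b1 (chr17:79706953-79715041 in the table and chr17:79701537-79715061 in GENCODE M21, minus strand) encodes a cytochrome P450 that oxidizes estrogens and polycyclic hydrocarbons and is induced through AHR; it is also expressed without ligand in steroid-producing and connective tissue. It had 4.28, 4.98 and 3.89 FPKM in alcohol-FMT mice 18, 24 and 31, against 3.58, 4.04 and 3.67 FPKM in control-FMT mice 16, 19 and 21, from 366 to 476 fragments in the alcohol-FMT and 319 to 371 in the control-FMT libraries. Mice 18 and 24 of the alcohol-FMT group were above all control-FMT mice, and mouse 31 was below control-FMT mouse 19. Means were 4.38 ± 0.556 FPKM in alcohol-FMT mice and 3.76 ± 0.245 FPKM in control-FMT mice (SD, n = 3 each; exact permutation p = 0.2). The log2 fold change was 0.17 with SE 0.099 and an interval of -0.06 to 0.41 (limma, adjusted p = 0.757), and it was 0.09 without alcohol-FMT mouse 24. Limma-voom gave 0.22 (adjusted p = 0.764), and 0.30 without alcohol-FMT mouse 31. That was the only value of a tested member, over the 13 limma and 9 limma-voom alternatives, that came under an unadjusted 0.05, and its adjusted p was 0.880.

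The promoters of Arnt and Cyp1b1 are shown because these are the tested members of the AHR route, and each holds 1 copy of GCGTG, the core of the xenobiotic response element that AHR with ARNT binds. The windows are from RefSeq on GRCm38.p6, 250 bases before to 50 after the start of transcription, written 5′ to 3′ on the gene's own strand, with the core in capitals. Arnt is chr3:95434140-95434439 on the plus strand, and its core reads forward with its first base 29 bases before the start. Cyp1b1 is chr17:79715012-79715311 on the minus strand, and its core lies on the opposite strand, hence CACGC, with its leftmost base 76 bases before the start.
Arnt: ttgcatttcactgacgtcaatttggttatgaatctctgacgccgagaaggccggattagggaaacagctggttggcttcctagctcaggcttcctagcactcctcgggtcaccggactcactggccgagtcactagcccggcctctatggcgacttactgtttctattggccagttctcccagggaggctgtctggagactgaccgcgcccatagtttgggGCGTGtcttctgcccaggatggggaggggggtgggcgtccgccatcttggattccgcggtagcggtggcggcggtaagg
Cyp1b1: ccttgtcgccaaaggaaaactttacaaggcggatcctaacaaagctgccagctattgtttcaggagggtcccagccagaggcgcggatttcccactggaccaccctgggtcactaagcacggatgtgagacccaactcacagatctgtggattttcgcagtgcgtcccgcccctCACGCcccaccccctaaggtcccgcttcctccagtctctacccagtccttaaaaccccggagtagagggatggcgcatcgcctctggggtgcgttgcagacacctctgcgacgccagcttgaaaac
The core is short and common: 32.4% of 32851 promoter windows of the same length (10639) hold it on either strand. Of the 9 members with a window, Vdr and Ffar2 also had 1 copy each, and Rxra, Nr1i2, Nr1h4, Gpbar1 and Ffar3 had none. These counts are for 1 window per gene, although Rxra has 2 windows and Ffar2 has 4. The windows of Rxra, Vdr and Nr1h4 lie within the span of the gene. The half-site AGGTCA, which nuclear receptors that pair with retinoid X receptors bind, was found in the windows of Nr1h4 and Ffar2 and in 16.3% of all windows (5340), searched on both strands. A match in these letters is a description and not evidence of binding.

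Other genes of the AHR route were taken from a list of 17 chaperones, partners, targets and ligand-producing enzymes, of which 8 were tested. At the unadjusted threshold 0 of them were called in either direction, with a median log2 fold change of -0.03 beside 0.01 for all genes tested. The 2 with the smallest p were Gstm1, a glutathione transferase, and Nqo1, a quinone reductase. Gstm1 averaged 188 ± 34.2 FPKM in alcohol-FMT mice and 226 ± 5.74 FPKM in control-FMT mice (log2 fold change -0.28, adjusted p = 0.703, limma), and Nqo1 averaged 1.14 ± 0.242 FPKM in alcohol-FMT mice and 1.58 ± 0.502 FPKM in control-FMT mice (-0.25, adjusted p = 0.798). Of the classical AHR targets, Cyp1a1 had 0, 0.0385 and 0.0195 FPKM in alcohol-FMT mice 18, 24 and 31, an average of 0.019. It was at 0 in all 3 control-FMT mice. Cyp1a1 did not reach the 10 fragments in all that limma-voom required, so a difference between the groups could not be assessed. Cyp1a2 averaged 0.156 FPKM in alcohol-FMT and 0.120 FPKM in control-FMT mice, and the AHR repressor gene Ahrr averaged 0.061 FPKM in alcohol-FMT and 0.074 FPKM in control-FMT mice. Tiparp, another target, was well above them at 5.66 ± 0.825 FPKM in alcohol-FMT mice and 5.26 ± 0.402 FPKM in control-FMT mice (SD, n = 3 each), and did not differ beyond the spread between mice (log2 fold change 0.08, 95% interval -0.17 to 0.34). Cyp1b1 was 11.7 to 19.1 times the level of Ahr in alcohol-FMT mice and 13.1 to 16.0 times in control-FMT mice.

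Rxra (chr2:27676440-27762957, plus strand, up to 11 exons) encodes the shared heterodimer partner of the vitamin D, xenobiotic and bile acid receptors and is the most abundant member. It had 9.06, 9.38 and 8.84 FPKM in alcohol-FMT mice 18, 24 and 31, against 8.25, 8.05 and 8.87 FPKM in control-FMT mice 16, 19 and 21, from 834 to 954 fragments in the alcohol-FMT and 788 to 821 in the control-FMT libraries. Mice 18 and 24 were above all control-FMT mice, while alcohol-FMT mouse 31 and control-FMT mouse 21 crossed by a narrow margin. Means were 9.09 ± 0.270 FPKM in alcohol-FMT mice and 8.39 ± 0.425 FPKM in control-FMT mice (SD, n = 3 each; exact permutation p = 0.2). The log2 fold change was 0.10 with SE 0.070 and an interval of -0.06 to 0.27 (limma, adjusted p = 0.798). On this scale the interval reaches from 0.959-fold to 1.21-fold, which is the precision that 3 mice a group gave for the best measured member.

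Vdr (chr15:97854425-97910630, minus strand, up to 10 exons) had 1.92, 1.85 and 1.69 FPKM in alcohol-FMT mice 18, 24 and 31, against 1.59, 1.48 and 1.82 FPKM in control-FMT mice 16, 19 and 21, from 175 to 195 fragments in the alcohol-FMT and 150 to 174 in the control-FMT libraries. As for Rxra, alcohol-FMT mice 18 and 24 were above all control-FMT mice, and control-FMT mouse 21 was above alcohol-FMT mouse 31. Means were 1.82 ± 0.121 FPKM in alcohol-FMT mice and 1.63 ± 0.171 FPKM in control-FMT mice (SD, n = 3 each; exact permutation p = 0.2). The log2 fold change was 0.10 with SE 0.090 and an interval of -0.11 to 0.31 (limma, adjusted p = 0.849), and it was 0.06 without control-FMT mouse 19. Rxra was 4.71 to 5.24 times the level of Vdr in alcohol-FMT mice and 4.88 to 5.43 times in control-FMT mice, ranges that overlap.

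Nr1i2 (chr16:38248323-38294824, minus strand, 9 exons) encodes PXR, known in liver and gut as the switch for drug-metabolizing CYP3A enzymes. It had 14, 14 and 12 fragments in alcohol-FMT mice 18, 24 and 31, against 16, 4 and 12 in control-FMT mice 16, 19 and 21, which is 0.325, 0.294 and 0.256 FPKM in alcohol-FMT mice against 0.346, 0.0875 and 0.277 FPKM in control-FMT mice. Control-FMT mouse 19 alone was low, and the other 5 mice overlapped. The limma-voom log2 fold change of 0.48 (SE 0.47, interval -0.53 to 1.49, adjusted p = 0.869) rested on that mouse, since without it the value was -0.10.

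Nr1h4 (chr10:89454234-89533585, minus strand, up to 10 exons) encodes FXR, which in liver and ileum limits bile acid synthesis. It had 7, 11 and 5 fragments in alcohol-FMT mice 18, 24 and 31, against 11, 5 and 6 in control-FMT mice 16, 19 and 21, or 0.180, 0.256 and 0.118 FPKM in alcohol-FMT mice against 0.264, 0.121 and 0.154 FPKM in control-FMT mice. The groups overlapped throughout and their means were nearly equal, 0.185 ± 0.069 FPKM in alcohol-FMT mice and 0.180 ± 0.075 FPKM in control-FMT mice (SD, n = 3 each). The limma-voom log2 fold change was 0.04 with SE 0.51 and an interval of -1.05 to 1.14 (adjusted p = 0.991), which on a linear scale reaches from 0.482-fold to 2.20-fold. In this fit 6.77% of the 26193 genes had an unadjusted p up to 0.05, and 0 of Ahr, Nr1i2 and Nr1h4 did.

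The surface receptors were at the limit of detection. Gpbar1 (chr1:74278550-74279624, plus strand, 1 exon) had 1, 1 and 2 fragments in alcohol-FMT mice 18, 24 and 31, against 0, 4 and 0 in control-FMT mice 16, 19 and 21, a ratio of 0.983 with a counting interval of 0.183 to 5.28. Ffar2 (chr7:30818348-30823775, minus strand) had 0, 2 and 0 fragments in alcohol-FMT mice 18, 24 and 31, against 1, 3 and 1 in control-FMT mice 16, 19 and 21, a ratio of 0.393 with an interval of 0.037 to 2.40. Ffar3 (chr7:30854330-30856178, minus strand), which lies 30554 bases from Ffar2, had 0 fragments in all 3 alcohol-FMT mice and 0, 0 and 1 in control-FMT mice. A count of 0 allows up to 3 fragments (the one-sided 95% limit), which for Ffar3 is 0.0871 to 0.0962 FPKM in alcohol-FMT mice, so no fold is given. These intervals cover counting error only. A difference between the groups was not detectable at this depth. RNA of a whole organ does not show which cell type the few fragments came from.

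**Figure D2:**
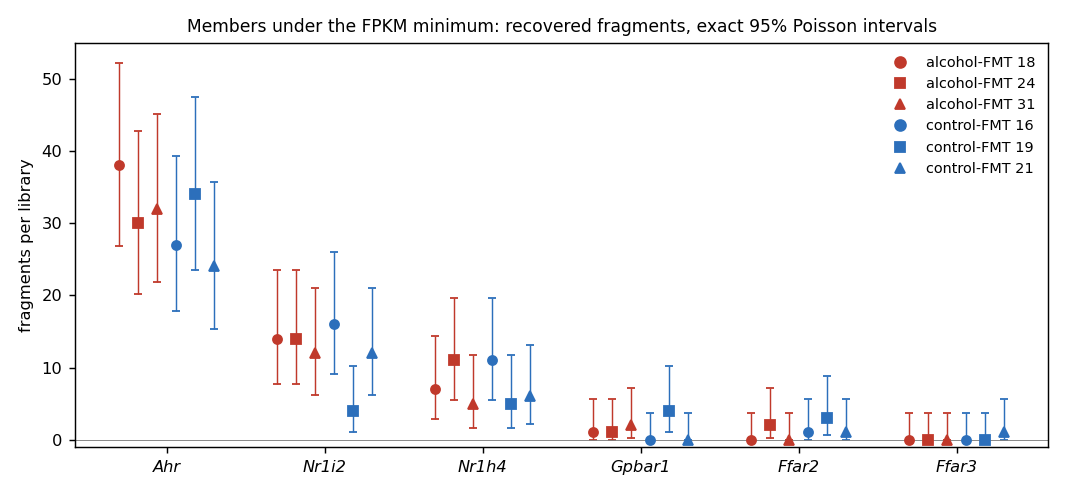
Fragments per library (vertical axis) of the 6 members with a mean FPKM below 1, with exact 95% Poisson intervals, for the alcohol-FMT mice (red, left within each gene) and the control-FMT mice (blue, right). Ahr had 24 to 38 fragments in each library, and Gpbar1, Ffar2 and Ffar3 had 0 to 4.

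**Figure D3:**
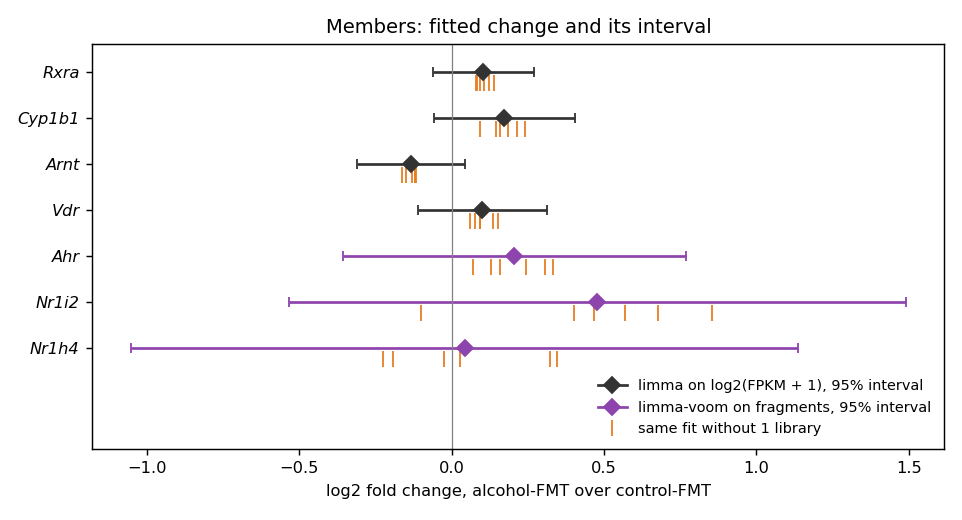
Log2 fold change (horizontal axis, alcohol-FMT over control-FMT) of the 7 members that reached the minimum of these fits, with 95% intervals, by limma on log2(FPKM + 1) for Rxra, Cyp1b1, Arnt and Vdr (black) and by limma-voom on fragments for Ahr, Nr1i2 and Nr1h4 (purple). Orange ticks are the same fit without 1 library. All 7 intervals include 0, and ticks fall on both sides of 0 only for Nr1i2 and Nr1h4.

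The pathways around these receptors were followed with 8 lists of 100 genes in all. Of the 33 that reached a mean FPKM of 1, 0 were called higher and 1 was called lower in alcohol-FMT mice at the unadjusted threshold (3.03%, against 7.27% of all genes tested), and 0 passed the adjusted threshold. Of the 67 below that level, 45 had at least 10 fragments, and limma-voom gave 3 higher and 1 lower (8.89%, against 6.77% of all genes in that fit), again with 0 past the adjusted threshold. The 3 higher include Nr0b2, which reached the minimum of fragments only through the alcohol-FMT mice.

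The one called gene of the tested lists was Crebbp, which encodes the histone acetyltransferase CBP, a coactivator of many nuclear receptors. It had 3.17, 3.38 and 3.35 FPKM in alcohol-FMT mice 18, 24 and 31, against 4.10, 4.62 and 4.04 FPKM in control-FMT mice 16, 19 and 21, and all 3 alcohol-FMT mice were below all control-FMT mice. The log2 fold change was -0.29 with SE 0.080 (limma, adjusted p = 0.595), and the unadjusted value stayed below 0.05 under all 13 alternatives. Its paralog Ep300, which encodes p300, averaged 4.29 ± 0.111 FPKM in alcohol-FMT mice and 5.04 ± 0.467 FPKM in control-FMT mice (SD, n = 3 each; log2 fold change -0.19, limma, adjusted p = 0.689). Both belong to a list of 10 nuclear receptor coregulators, of which 9 were tested and 8 had a log2 fold change below 0, as had 47.5% of all genes tested. The list's median was -0.14, beside 0.01 for all genes, and the groups did not overlap for 4 of the 9, all lower in alcohol-FMT mice (against 5.33% of all genes tested): Crebbp, Ep300, Ncoa1 and Ncoa3. The number of coregulators called lower depended on the setting. It was 4 with library totals and 3 with limma-voom, among protein-coding genes, without alcohol-FMT mouse 18 and without control-FMT mouse 16. It was 1 in the other alternatives. The share of all genes called in either direction also moved with the setting. That share was 6.33% with library totals, 7.31% with limma-voom and 7.22% among protein-coding genes. Without alcohol-FMT mouse 18 it was 17.7%, without control-FMT mouse 16 it was 6.33%, and in the others 4.37 to 7.19%.

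Gene length differed between this list and all genes tested. The tested coregulators had a median length of 10490 bases, against 3040 for all genes tested, and with each library's trend against length removed their median log2 fold change was -0.08, with Crebbp at -0.23 and still called at the unadjusted threshold. Without 1 library at a time the list's median ran between -0.19 and -0.09. The part of transcript length in the values of the list was not tested. Nor was that of the Sertoli cell markers, of which Wt1, Sox9 and Fshr were lower and Rhox5 had a higher mean. Arnt, with a length of 8007 bases the longest member, had a log2 fold change of -0.10 with the trend removed.

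**Figure D4:**
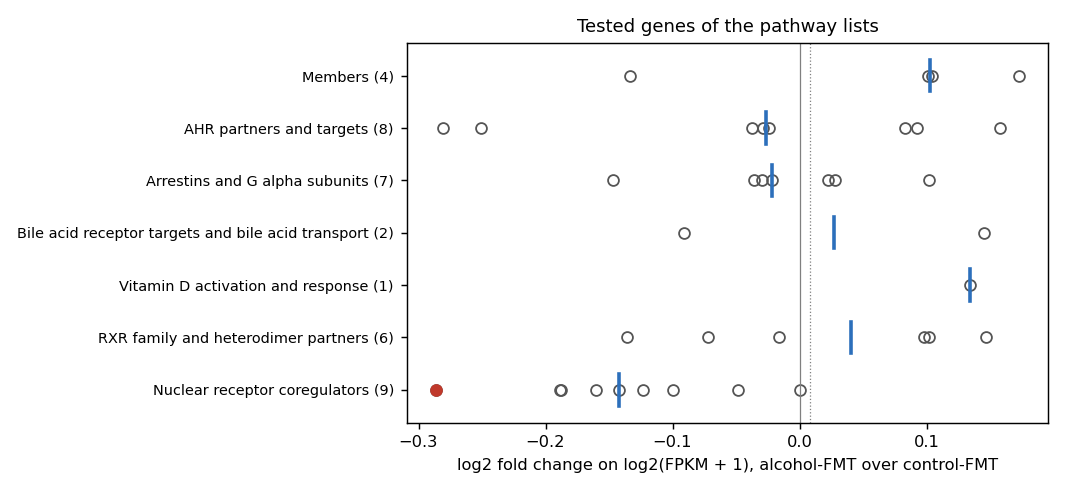
Log2 fold change (horizontal axis, alcohol-FMT over control-FMT, limma on log2(FPKM + 1)) of the 4 tested members and of the tested genes of each pathway list, with the number tested in brackets; circles are genes, red where the unadjusted p was up to 0.05, blue bars are list medians and the dotted line is the median of all genes. The coregulators lie at or below 0 with a median of -0.14, and Crebbp is the only red circle.

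Retinoid X receptors and their partners beyond the members formed a list of 14, of which 6 were tested with 0 higher and 0 lower and a median log2 fold change of 0.04. The 2 with the smallest p were Nr1h3, the oxysterol receptor LXR alpha, at 5.29 ± 0.378 FPKM in alcohol-FMT mice and 4.86 ± 0.171 FPKM in control-FMT mice (0.10, adjusted p = 0.819, limma), and the thyroid hormone receptor gene Thra, at 1.34 ± 0.279 FPKM in alcohol-FMT mice and 1.56 ± 0.255 FPKM in control-FMT mice (-0.14, adjusted p = 0.856). Rxrg, a sister of Rxra below the tested level, had 33, 51 and 34 fragments in alcohol-FMT mice 18, 24 and 31, against 36, 17 and 18 in control-FMT mice 16, 19 and 21. Control-FMT mouse 16 lay within the alcohol-FMT range, so the groups overlapped. Limma-voom gave Rxrg a log2 fold change of 0.75 (SE 0.31, adjusted p = 0.727), a call at the unadjusted threshold that was lost without control-FMT mouse 19 (0.55), without alcohol-FMT mouse 24 (0.57) and without control-FMT mouse 21 (0.64).

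The bile acid list held 16 targets, transporters and enzymes, of which only Abcc3, an efflux pump, and Cyp27a1, a sterol hydroxylase, were tested; Abcc3 averaged 15.1 ± 2.01 FPKM in alcohol-FMT mice and 13.5 ± 1.02 FPKM in control-FMT mice (log2 fold change 0.14, adjusted p = 0.816, limma), and Cyp27a1 averaged 2.99 ± 0.672 FPKM in alcohol-FMT mice and 3.22 ± 0.334 FPKM in control-FMT mice (-0.09, adjusted p = 0.913). Fabp6, the ileal bile acid binding protein gene, was at 0 in all 6 libraries. Nr0b2, which encodes SHP, the repressor that FXR induces in liver, was among the scarce genes called with limma-voom. It had 9, 4 and 7 fragments in alcohol-FMT mice 18, 24 and 31, against 3, 1 and 0 in control-FMT mice 16, 19 and 21, so that all 3 alcohol-FMT mice were above all control-FMT mice. The sums were 20 fragments in alcohol-FMT mice and 4 in control-FMT mice. Only the alcohol-FMT sum reached the minimum of fragments for this fit, so the gene entered it through the group where it was high. The fitted log2 fold change was 2.25 with SE 0.86 and an interval of 0.41 to 4.08 (adjusted p = 0.727). The call at the unadjusted threshold was lost without control-FMT mouse 21, the library at 0 (1.56). Nr1h4 itself had 23 fragments in alcohol-FMT mice and 22 in control-FMT mice.

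On the vitamin D list of 10 genes only Cyp2r1, a vitamin D 25-hydroxylase, was tested, at 2.28 ± 0.475 FPKM in alcohol-FMT mice and 1.98 ± 0.333 FPKM in control-FMT mice (log2 fold change 0.13, adjusted p = 0.869, limma). Cyp24a1, the enzyme that VDR induces to break down its own ligand, averaged 0.241 ± 0.125 FPKM in alcohol-FMT mice and 0.197 ± 0.077 FPKM in control-FMT mice, and Cyp27b1, which makes the active hormone, 0.151 FPKM in alcohol-FMT and 0.154 FPKM in control-FMT mice, with groups that overlapped. Lrp2, the endocytic receptor megalin, had 33, 32 and 51 fragments in alcohol-FMT mice 18, 24 and 31 (116 in all). Control-FMT mice 16, 19 and 21 had 50, 70 and 50 (170 in all). Alcohol-FMT mouse 31 was above control-FMT mouse 16, so the groups overlapped. It was the scarce gene called lower with limma-voom (log2 fold change -0.58, adjusted p = 0.727). That call was lost without alcohol-FMT mouse 24 (-0.43), control-FMT mouse 19 (-0.43) or alcohol-FMT mouse 18 (-0.54). None of the 12 genes on the xenobiotic receptor list reached a mean FPKM of 1. Abcb1a, a drug efflux pump, was highest at 0.964 FPKM, and Cyp3a13 and the nuclear receptor gene Nr1i3 were at 0 in all libraries.

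Of 13 further G protein-coupled receptors for microbial products none reached a mean FPKM of 1. The highest, above the levels of Gpbar1, Ffar2 and Ffar3, were Ffar4, a receptor for long-chain fatty acids, at 0.573 FPKM and Gpr132 at 0.526 FPKM. The histamine receptor gene Hrh1 had 12, 16 and 18 fragments in alcohol-FMT mice 18, 24 and 31, against 17, 2 and 6 in control-FMT mice 16, 19 and 21, and was called higher with limma-voom (log2 fold change 1.23, adjusted p = 0.737) although control-FMT mouse 16 was above alcohol-FMT mouse 24. That call was lost without control-FMT mouse 19 (0.50), alcohol-FMT mouse 31 (1.12), alcohol-FMT mouse 24 (1.22) or control-FMT mouse 21 (1.24). The arrestins and G alpha subunits through which such receptors signal were tested for 7 of 8 genes, with 0 higher and 0 lower and a median log2 fold change of -0.02. Arrb1 averaged 1.83 ± 0.158 FPKM in alcohol-FMT mice and 2.13 ± 0.120 FPKM in control-FMT mice (-0.15, adjusted p = 0.770, limma), and Arrb2 averaged 1.77 ± 0.232 FPKM in alcohol-FMT mice and 1.58 ± 0.129 FPKM in control-FMT mice (0.10, adjusted p = 0.860).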

How the data were processed

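Total RNA from testes was made into libraries with an Illumina TruSeq RNA kit. FPKM values were deposited by the authors for 54532 genes and 6 libraries, with the length of each gene beside them as another deposited column. The authors' methods name TopHat2 and DESeq2. HISAT2 (2.0.5), mm10 and mm8 are listed by the submitters' processing notes, and the sources used here do not say which tool gave these values. Gene positions are those of Ensembl on GRCm38, and 54409 of 54532 identifiers were found in GENCODE M21. In 100% of values FPKM times length was a whole multiple, within 0.01, of 1 step per library, and these fragments were read back.

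The main test used limma (version 3.58.1, under R 4.3.3) on log2(FPKM + 1), with pseudocount 1 and eBayes trend, on genes whose mean FPKM reached 1. It compared 3 alcohol-FMT and 3 control-FMT libraries, two-sided, with Benjamini-Hochberg adjustment over all genes tested and a threshold of 0.05. This scale understates changes of low genes, so those with at least 10 fragments in all were also fitted with limma-voom on fragments. Single values were compared with an exact permutation test in SciPy 1.17.1, and counts were given exact Poisson intervals. The scripts were tested on simulated data. Mice were separate animals, so p-values measure the spread between them. Those of a group shared their donors, so the spread between donors is not covered.

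The members and lists were chosen with earlier results of these data known. The text names all 10 members, in each list the 2 genes of smallest p and every listed gene at an unadjusted p up to 0.05 in that limma test, and the 3 genes most like the member with the smallest p. Cyp1a1, Cyp1a2, Ahrr, Tiparp, Fabp6, Cyp24a1, Cyp27b1, Ffar4, Gpr132, Abcb1a, Cyp3a13, Nr1i3, Ncoa1, Ncoa3, the markers Wt1, Sox9, Fshr, Cldn11 and Rhox5, and the scarce genes Nr0b2, Rxrg, Lrp2 and Hrh1, called only in limma-voom, fall outside that rule, their values having been seen first. The marker Hbb-bs falls outside it too. Alternatives changed the scaling, filter, pseudocount, test, length trend and gene set, or left out 1 library.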

Additional observations from a re-analysis of the deposited data

How the results depend on the processing

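No paired analysis was possible because the alcohol-FMT and control-FMT mice share no replicate number. The count of tested members at an unadjusted p up to 0.05 was 0 under all 13 alternatives, and their log2 fold changes kept their direction in 52 of 52 values, with p between 0.128 and 0.389 for Rxra, 0.0522 and 0.363 for Cyp1b1, 0.0770 and 0.243 for Arnt, and 0.191 and 0.579 for Vdr. Limma-voom without 1 library, chosen after seeing the data, gave Cyp1b1 0.12 to 0.30, with 0.30 past an unadjusted 0.05 without alcohol-FMT mouse 31. The scarce members were not called in any of 9 alternatives, but Gpbar1, Ffar2 and Ffar3 entered only those that took any gene with a fragment. Ahr ran between 0.07 and 0.33 without 1 library, but other directions turned: Nr1i2 was at -0.10 without control-FMT mouse 19 and ran between -0.10 and 0.86 without 1 library, and Nr1h4 was at -0.22 when alcohol-FMT mouse 24 was left out, at -0.19 when control-FMT mouse 19 was, and at -0.02 when control-FMT mouse 21 was, with a range of -0.22 to 0.35. The cause was not tested. Genes of the whole table past the adjusted threshold numbered 0 to 2 without 1 library (2 without alcohol-FMT mouse 31) with limma, and in limma-voom on at least 10 fragments 778 without alcohol-FMT mouse 18, 5 without alcohol-FMT mouse 31 and 0 in the other fits. Those at an unadjusted p up to 0.05 numbered 2016 with no filter, which tests more genes, and 664 to 2697 without 1 library: 2697 when alcohol-FMT mouse 18 was left out, 664 for control-FMT mouse 19 and 678 for control-FMT mouse 21. Of the 1106 such genes in the reported fit, 67.8% were higher in alcohol-FMT mice, against 46.6% with library totals, 59.4% with limma-voom and 50.2% with the length trend removed. The pathway genes called numbered 1 of 33 tested, and 4 with library totals, 4 with limma-voom, 2 with no filter, 2 with at least 10 fragments in 3 libraries, 2 with the length trend removed, 3 among protein-coding genes, and 1 to 7 without 1 library: 7 when alcohol-FMT mouse 18 was left out, 4 for control-FMT mouse 16 and 2 for alcohol-FMT mouse 24. Of all genes tested, 7.27% were called in the reported fit and 17.7% without alcohol-FMT mouse 18. In the other alternatives this share was 4.37 to 7.31%. The number of pathway genes tested changed with the filter. With fewer than 10 fragments each, Gpbar1, Ffar2 and Ffar3 were left out of the main limma-voom fit, and no fitted change is given for them.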

Other observations

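Arnt was the tested member with the smallest p, and the genes whose log2(FPKM + 1) followed it most closely over the 6 libraries were the unprocessed pseudogene 4930488N24Rik (Pearson's r = 0.993), Lims1, which encodes an adaptor protein of focal adhesions (0.987), and Nsmce2, which encodes a SUMO ligase of the SMC5/6 complex (0.982). Of 15205 genes, 36 had r above 0.95. These values describe the same 6 libraries that give the group difference, and no test was made of them.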
